A study of Sus scrofa with 9 samples.

Results

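ANKRD1, CCN1, CCN2, AMOTL2, AXL, CRIM1, AJUBA, LATS2, PTPN14 and MYOF are widely used target genes of the co-activator YAP and its DNA-binding partners, the TEAD factors. Their RNA was followed in porcine embryonic fibroblasts before insulin and after 48 h and 72 h with it. The 10 genes were found by symbol among the 30477 gene IDs of the deposited tables. All 10 were among the 11063 genes that passed a filter on low values, which kept genes that reached an FPKM of 1 in 3 or more libraries. FPKM counts fragments relative to gene length and library size and is thus a level per length, so levels of different genes can be compared. The genes were selected on these same FPKM values: ANKRD1 for being lower at each later time, and CCN1 and CCN2 for being higher again at 72 h. Their values are therefore a description and carry no test. Tests are given only for other genes of the pathway.

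Embryonic fibroblasts are matrix-forming cells taken from embryos, here from pigs, and kept in culture. There were 3 libraries of untreated control cells (0 h), 3 of cells collected 48 h after insulin was added and 3 of cells collected after 72 h, all made from total RNA after removal of ribosomal RNA. The cells came from thawed lines, and the labels call the libraries of a time biological replicates without saying whether they came from different lines, so p-values measure only the spread between these libraries. The sources used here give no breed, sex, genotype, insulin concentration or medium. Untreated cells at 48 h or 72 h were not analysed here, so insulin and time in culture cannot be told apart.

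In the Hippo pathway, the kinases MST1 and MST2 activate LATS1 and LATS2, which phosphorylate YAP and its relative TAZ and keep them out of the nucleus. When the pathway is quiet, YAP and TAZ enter the nucleus, bind TEAD factors and switch on genes of growth, adhesion and matrix. In cultured fibroblasts this output is known to depend on cell density, on tension in the cytoskeleton and on serum factors. Several targets, among them AMOTL2, LATS2, PTPN14 and AJUBA, encode regulators of the pathway itself.

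The cells carried the fibroblast markers, of which 9 of 10 listed were matched. Their summed FPKM was 20100 to 21000 at 0 h, 18900 to 19500 at 48 h and 20400 to 21000 at 72 h. That sum was held mostly by COL1A1, COL1A2 and VIM and does not show single markers. At 72 h against 0 h 6 of the 9 rose and 1 fell (limma, adjusted p below 0.05), beside 23% and 22.5% of all tested genes. EPCAM and CDH1 of epithelium, CDH5, KDR and TEK of endothelium, and PTPRC, CD3E and CSF1R of blood cells were at or near 0 in every library. The summed FPKM of the epithelial, endothelial and blood markers lay between 5.83 and 13.9, 8.65 and 19.2, and 1.57 and 5.37, held mostly by KRT8, ERG and CD14. The summed FPKM of 8 pericyte and smooth muscle markers was 193 to 195 at 0 h, 114 to 119 at 48 h and 119 to 138 at 72 h. In that list RGS5, HIGD1B, KCNJ8 and ABCC9 stayed below 1 in every library. Within that low range KCNJ8 (mean 0.26 to 0.79 FPKM) and ABCC9 (0.127 to 0.803) were higher at 72 h than in every 0 h library. The other 4 genes, NOTCH3, MCAM, CSPG4 and MYH11, fell at both times, so the list did not move in 1 direction. Its summed FPKM moved with most of the target genes, and the part of that sum in their values was not tested. Fewer cells of a type and less RNA per cell cannot be told apart in bulk RNA. FPKM carries no read counts, so the depth behind each value is unknown. Steps between low values put the relative depth at 0.989 to 1.06 of the first 0 h library, except for replicate 3 of 48 h at 1.29. These are rough values, from 14 to 30 low genes a library.

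At 48 h all 10 target genes were lower than at 0 h in every library, with no overlap of the groups. Among all tested genes, 27.6% were lower without overlap and 32.4% were higher. At 72 h 7 of the 10 were below every 0 h library and CCN2 was above every one, while PTPN14 and MYOF overlapped. Among all tested genes 30.4% were lower and 28.1% higher in that comparison. Between 48 h and 72 h, CCN1, CCN2, AMOTL2, PTPN14 and MYOF were higher in every library and ANKRD1 and AXL lower, against 14.9% higher and 23.9% lower among all tested genes. CRIM1, AJUBA and LATS2 overlapped between 48 h and 72 h. These counts follow from how the genes were chosen and are not read further.

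**Figure D1:**
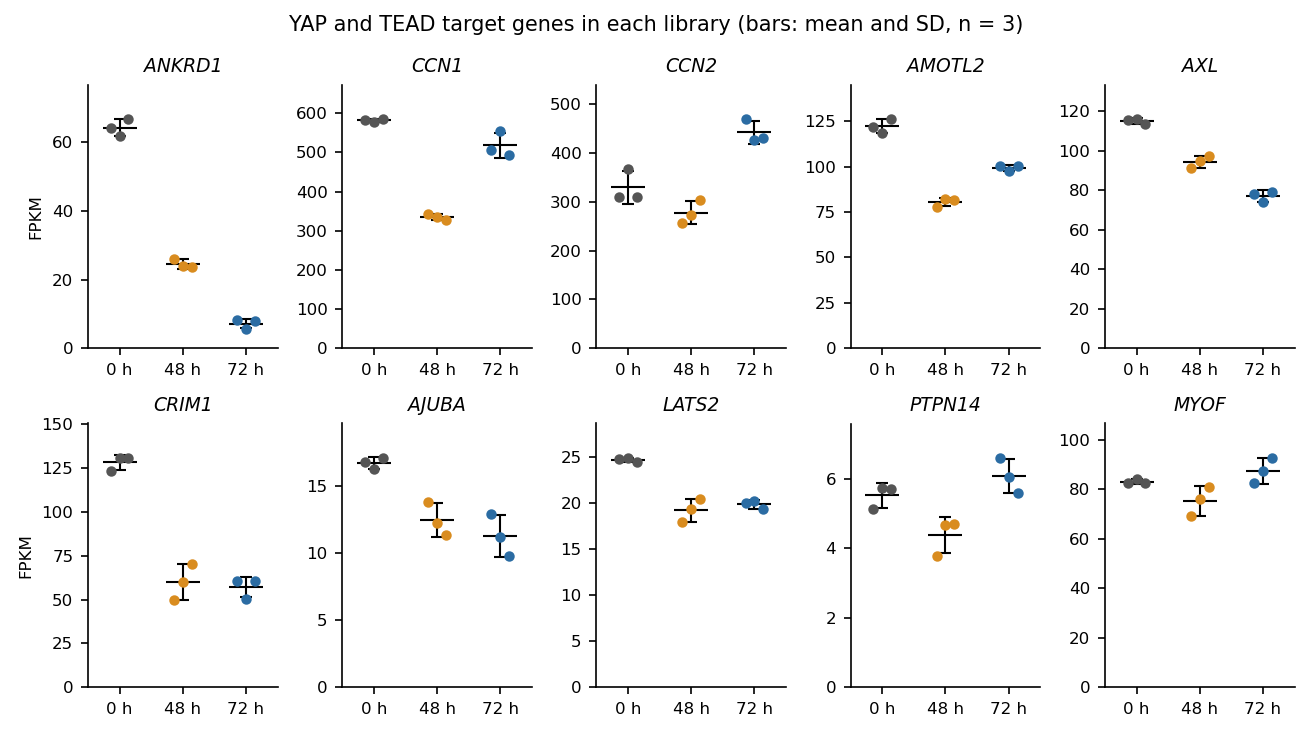
FPKM of the 10 target genes (vertical axis, from 0, a different range in each panel) in the 3 libraries of 0 h, 48 h and 72 h; points are libraries, and the bars give the mean and SD (n = 3). ANKRD1 goes from 61.66 to 66.66 at 0 h down to 5.6 to 8.17 at 72 h, while CCN1 and CCN2 have their lowest values at 48 h and higher values again at 72 h.

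The median difference of the 10 genes from 0 h, on the log2(FPKM + 1) scale, was -0.37 at 48 h and -0.30 at 72 h, and it was 0.13 from 48 h to 72 h. Over all tested genes the medians were 0.02, -0.01 and -0.03. The 48 h and 72 h comparisons share the 0 h libraries. The genes took 2 main paths: ANKRD1 and AXL were lower at 48 h and lower again at 72 h, as were 6.16% of all tested genes. CCN1, CCN2, AMOTL2, PTPN14 and MYOF were lower at 48 h and then higher at 72 h than at 48 h, as were 5.47% of all tested genes. CRIM1, AJUBA and LATS2 were lower at 48 h and overlapped between 48 h and 72 h.

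**Figure D2:**
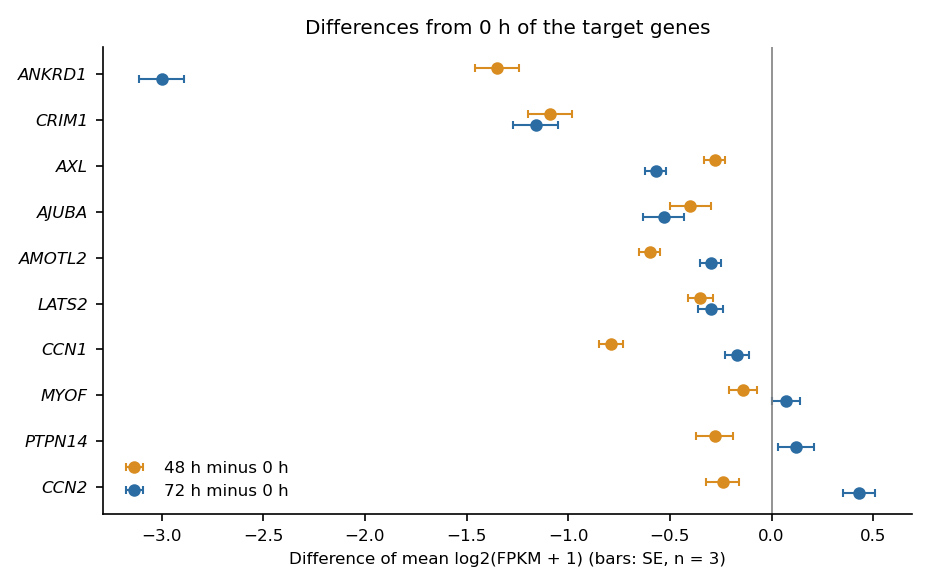
Difference of mean log2(FPKM + 1) from 0 h (horizontal axis) for each target gene at 48 h and at 72 h; points are differences and bars are SE (n = 3 libraries a time). ANKRD1 stands at -1.35 and -3.00, CRIM1 at -1.09 and -1.16, and CCN2 lies below 0 at 48 h (-0.24) and above 0 at 72 h (0.43).

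CCN1 and CCN2 encode secreted matricellular proteins, formerly CYR61 and CTGF, that bind integrins and other matrix components and act on adhesion and matrix production. They are short genes: CCN1 (ENSSSCG00000006940) occupies positions 130392404 to 130395179 of chromosome 4 in the build Sscrofa11.1, and CCN2 (ENSSSCG00000004192) positions 31674398 to 31677697 of chromosome 1. All 10 targets are annotated as protein-coding, and values are for whole genes. They had the highest FPKM of the 10 genes, and at 0 h CCN1 was above 99.0% and CCN2 above 98.3% of all tested genes.

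CCN1 stood at 582.65, 576.5 and 585.26 FPKM in the 0 h libraries, at 342.9, 336.05 and 326.57 at 48 h and at 506.68, 554.72 and 492.78 at 72 h. The 3 times did not overlap: every 48 h library was below every other library, and every 72 h library was between the 48 h and 0 h values. The mean was 57.6% of the 0 h mean at 48 h and 89.1% at 72 h. On the log2 scale CCN1 differed from 0 h by -0.79 ± 0.06 (SE) at 48 h and -0.17 ± 0.06 at 72 h, and from 48 h to 72 h by 0.63 ± 0.06. The 72 h difference was -0.31 with quantile normalization and also with a trend on gene span removed.

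CCN2 stood at 310.41, 367.54 and 309.7 FPKM at 0 h, at 257.16, 272.36 and 303.71 at 48 h and at 469.04, 426.26 and 430.33 at 72 h. The 48 h libraries were all below the 0 h libraries, though the highest of them came close to the lowest 0 h library, and the 72 h libraries were above all others. The 72 h mean was 134% of the 0 h mean, whereas that of CCN1 stayed below it. On the log2 scale CCN2 differed from 0 h by -0.24 ± 0.08 (SE) at 48 h and 0.43 ± 0.08 at 72 h. The 48 h difference was larger with FPKM rescaled to equal sums (-0.38), with quantile normalization (-0.42) and with a trend on gene span removed (-0.54).

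The relation of both CCN genes to each other also differed between times. Per length, CCN1 was 1.57 to 1.89 times CCN2 in the 0 h libraries, 1.08 to 1.33 times at 48 h and 1.08 to 1.30 times at 72 h. The ratios at 48 h and 72 h overlapped each other and were all below those of 0 h. Together the pair made up 61.2% to 62.8% of the summed FPKM of the 10 genes at 0 h, 61.8% to 63.2% at 48 h and 71.1% to 73.6% at 72 h. That sum was 1450 to 1500 at 0 h, 950 to 1020 at 48 h and 1300 to 1340 at 72 h.

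ANKRD1 (ENSSSCG00000010461, chromosome 14, 102603777 to 102612857) encodes an ankyrin repeat protein of the nucleus and the muscle sarcomere whose RNA is known to respond to mechanical stretch. It stood at 63.91, 61.66 and 66.66 FPKM at 0 h, at 26.09, 23.93 and 23.53 at 48 h and at 8.17, 5.6 and 7.92 at 72 h. No library of one time overlapped with another time, and each later time was lower. From a 0 h mean of 64.1 ± 2.5 (SD, n = 3), it was at 24.5 ± 1.38 after 48 h and 7.23 ± 1.42 after 72 h, which was 38.3% and 11.3% of the 0 h mean.

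On the log2 scale ANKRD1 differed from 0 h by -1.35 ± 0.11 (SE) at 48 h and by -3.00 ± 0.11 at 72 h, and by -1.65 ± 0.11 from 48 h to 72 h. At 72 h against 0 h this was the lowest difference among the 11063 tested genes. The order is a description of a gene selected for its low values, and it depended on the scale for low genes: ANKRD1 ranked 6 from the lowest with a pseudocount of 0.1 and 2 without replicate 2 of 72 h. It was the lowest in each of the other alternatives. At 48 h it ranked 43 from the lowest. Per length, ANKRD1 was 0.107 to 0.114 times CCN1 at 0 h, 0.0712 to 0.0761 times at 48 h and 0.0101 to 0.0161 times at 72 h, with no overlap between times.

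AMOTL2, LATS2, PTPN14 and AJUBA encode proteins that hold YAP in check or act on its kinases. AMOTL2 (ENSSSCG00000011643, chromosome 13, 75490936 to 75507360) encodes a junction protein of the angiomotin family that binds YAP in the cytoplasm. It stood at 121.91, 118.7 and 126.18 FPKM at 0 h, at 77.94, 81.88 and 81.35 at 48 h and at 100.15, 97.54 and 100.19 at 72 h. The 3 times did not overlap, with 48 h lowest and 72 h between 48 h and 0 h, the same order as CCN1. The log2 difference from 0 h was -0.60 ± 0.05 (SE) at 48 h and -0.30 ± 0.05 at 72 h. Across the 9 libraries AMOTL2 and CCN1 had a Pearson correlation of 0.93 on the log2 scale, a description over libraries of the same 3 times.

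LATS2 (ENSSSCG00000036326, chromosome 11, 1225523 to 1265970) encodes one of the kinases that phosphorylate YAP. It stood at 24.79, 24.92 and 24.47 FPKM at 0 h, at 17.93, 19.41 and 20.41 at 48 h and at 20.02, 20.28 and 19.34 at 72 h. Both later times were below 0 h and overlapped each other, at 77.9% and 80.4% of the 0 h mean. The log2 differences were -0.35 ± 0.06 and -0.30 ± 0.06 (SE).

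PTPN14 (ENSSSCG00000015582, chromosome 9, 129114668 to 129248898) encodes a tyrosine phosphatase that binds YAP and the regulator KIBRA. It had the lowest level of the 10 genes, with 5.12, 5.73 and 5.71 FPKM at 0 h, 3.79, 4.66 and 4.69 at 48 h and 6.6, 6.04 and 5.6 at 72 h. The 48 h libraries were below all others, and the 72 h libraries overlapped with 0 h. The log2 differences from 0 h were -0.28 ± 0.09 (SE) at 48 h and 0.12 ± 0.09 at 72 h, and the 48 h value was -0.13 with a trend on gene span removed. The 72 h value was 0.07 without replicate 1 of 0 h and also without replicate 1 of 72 h.

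AJUBA (ENSSSCG00000029201, chromosome 7, 76063009 to 76072884) encodes a LIM domain scaffold of junctions that inhibits LATS kinases. It stood at 16.79, 16.27 and 17.1 FPKM at 0 h, at 13.85, 12.22 and 11.36 at 48 h and at 12.9, 11.24 and 9.76 at 72 h. Every later library was below the 0 h libraries, and 48 h and 72 h overlapped. The log2 differences from 0 h were -0.40 ± 0.10 and -0.53 ± 0.10 (SE).

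AXL, CRIM1 and MYOF encode proteins of the plasma membrane. AXL (ENSSSCG00000038806, chromosome 6, 49245802 to 49277917) is a receptor tyrosine kinase bound by the ligand GAS6. It stood at 115.83, 116.13 and 113.33 FPKM at 0 h, at 91.32, 94.64 and 97.26 at 48 h and at 78.04, 73.96 and 79.4 at 72 h. Like ANKRD1 it was lower at each later time with no overlap, but over a smaller range, at 82.0% and 67.0% of the 0 h mean. The log2 differences were -0.28 ± 0.05 and -0.57 ± 0.05 (SE). The 48 h difference was -0.44 with quantile normalization. AXL and ANKRD1 had a correlation of 0.99 over the 9 libraries.

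CRIM1 (ENSSSCG00000008504, chromosome 3, 103612231 to 103815493) encodes a transmembrane protein that binds ligands of the BMP family. It stood at 123.39, 130.62 and 130.36 FPKM at 0 h, at 49.75, 60.28 and 70.24 at 48 h and at 60.43, 50.36 and 60.7 at 72 h. All later libraries were below 0 h, at 46.9% and 44.6% of the 0 h mean, and the 48 h libraries spread most among themselves. The log2 differences from 0 h were -1.09 ± 0.11 and -1.16 ± 0.11 (SE). Between 48 h and 72 h the difference was -0.06 ± 0.11, with no stable sign: it was 0.02 with FPKM rescaled to equal sums, 0.06 without replicate 3 of 48 h and -0.19 without replicate 1 of 48 h.

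MYOF (ENSSSCG00000010476, chromosome 14, 104770514 to 104941212) encodes myoferlin, which acts in membrane repair and trafficking. It stood at 82.61, 84.2 and 82.71 FPKM at 0 h, at 69.1, 76.2 and 81.15 at 48 h and at 82.47, 87.28 and 92.74 at 72 h. The 48 h libraries lay below the others, replicate 3 (81.15) only just below the lowest of them (82.47), and 72 h overlapped with 0 h. The log2 difference at 48 h was -0.14 ± 0.07 (SE), the smallest of the 10 genes. It was 0.01 with a trend on gene span removed, -0.08 without replicate 1 of 48 h and -0.28 with FPKM rescaled to equal sums. The difference at 72 h was 0.07 ± 0.07. It was -0.01 with quantile normalization, 0.03 without replicate 3 of 72 h and 0.11 without replicate 1 of 72 h.

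The 48 h libraries also differed from 0 h by gene span, the length of a gene with its introns. Among 9312 tested genes with a span, the shortest 1863 had medians of 0.324, 0.242 and 0.167 above the 0 h mean on the log2 scale in replicates 1, 2 and 3 of 48 h. The longest 1863 had medians of -0.243, -0.161 and -0.069. At 72 h the medians were 0.113, 0.143 and 0.038 for the shortest and -0.059, -0.094 and -0.033 for the longest. The target genes ran from 2.78 kb for CCN1 to 203 kb for CRIM1. With the trend removed from each library, a step chosen after seeing the data, the 48 h differences were -1.11 for CCN1, -0.54 for CCN2, -1.54 for ANKRD1 and -0.57 for AJUBA. In the middle of the range AMOTL2 was at -0.70, AXL at -0.28 and LATS2 at -0.31, and CRIM1 was at -0.94.

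**Figure D3:**
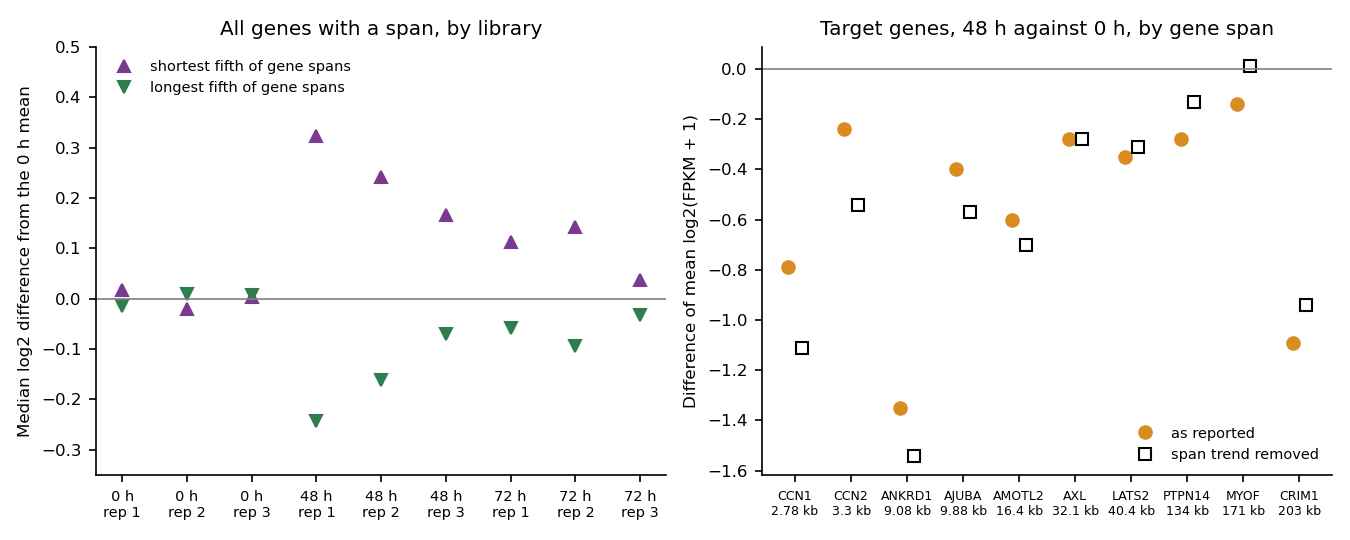
Left, median log2 difference from the 0 h mean (vertical axis) in each library for the 1863 genes with the shortest and the 1863 with the longest spans. Right, difference of mean log2(FPKM + 1) of the target genes at 48 h against 0 h, ordered by span in kb, as reported and with the span trend removed. Short and long genes part most in replicate 1 of 48 h (0.324 and -0.243), and removing the trend leaves 9 of the 10 genes below 0, with MYOF at 0.01.

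The factors that carry the signal, YAP, TAZ, the TEAD factors and the TEAD-binding VGLL proteins, were not used in the choice and were tested. Of 8 tested factors, 4 rose and 1 fell at 48 h against 0 h, with a median log2 change of 0.13, and 3 rose and 0 fell at 72 h, with a median of 0.10. Among all tested genes, limma called 27.6% higher and 22.4% lower at 48 h, and 23% higher and 22.5% lower at 72 h (Benjamini-Hochberg adjusted p below 0.05). From 48 h to 72 h 0 factors rose and 1 fell, where 9.17% of all genes rose and 16.3% fell. At an unadjusted p below 0.05 limma gave 0 falls at 72 h against 0 h and 1 rise from 48 h to 72 h. Rises at 48 h numbered 2 without replicate 1 or 2 of 0 h or 2 of 48 h, and falls 2 without replicate 3 of 48 h. At 72 h 1 factor fell without replicate 1 or 3 of 48 h. Of the factors from 48 h to 72 h, 1 rose without replicate 3 of 48 h or 2 of 72 h, and 0 fell without replicate 2 of 48 h or 3 of 72 h. Against 0 h, none of the factors changed by as much as ANKRD1 or CRIM1, the targets with the largest differences. At 48 h TEAD1 (-0.60) and TEAD2 (0.55) differed from 0 h by more than AJUBA, LATS2, AXL, PTPN14, CCN2 and MYOF (-0.40 to -0.14).

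YAP1, which encodes YAP, had a 0 h level of 27.4 ± 0.838 FPKM (SD, n = 3), with 32.0 ± 1.09 after 48 h and 30.8 ± 3.55 after 72 h. It rose at 48 h by 0.22 ± 0.08 (SE) on the log2 scale (limma, adjusted p = 0.0416). This call was lost in 10 of 18 alternatives, with adjusted p from 0.0571 to 0.467 (equal sums, 0.08), among them those without any 1 of the 0 h libraries (0.19 to 0.23), replicates 2 or 3 of 48 h (0.21 and 0.20) or replicate 1 of 72 h (0.22). At 72 h its difference was 0.16 ± 0.08 (adjusted p = 0.125), and it passed without replicate 2 of 72 h (0.24, adjusted p = 0.0179) and with the span trend removed (0.22, adjusted p = 0.0174). WWTR1, which encodes TAZ, was at 0.03 ± 0.10 at 48 h (adjusted p = 0.847) and rose at 72 h by 0.30 ± 0.10 (adjusted p = 0.0338), from 14.1 ± 0.539 to 17.7 ± 2.92 FPKM. That call was lost in 7 of 18 alternatives (adjusted p 0.0565 to 0.134), among them those without any 1 of the 0 h libraries (0.28 to 0.33) or without replicate 1 (0.22) or 3 (0.25) of 72 h.

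Among the TEAD genes, TEAD1 fell and TEAD2 rose at 48 h. TEAD1 had 37.1 ± 1.47 FPKM at 0 h and 17.75, 23.93 and 32.51 in replicates 1, 2 and 3 of 48 h, a change of -0.60 ± 0.16 (SE, adjusted p = 0.00901). At 72 h it had 30.6 ± 0.0361 FPKM, a difference of -0.27 ± 0.16 (adjusted p = 0.188). The test shares 1 spread over the 3 times, and without replicate 1 or replicate 3 of 48 h the same 72 h difference passed (adjusted p = 0.0383 and 0.0360). The 48 h call was kept under each of the 18 alternatives run, with differences from -0.82 to -0.40.

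TEAD2 went from 19.0 ± 0.734 FPKM at 0 h to 28.5 ± 3.71 at 48 h and 26.3 ± 1.86 at 72 h, changes of 0.55 ± 0.09 (adjusted p = 6.16e-04) and 0.45 ± 0.09 (adjusted p = 0.00203). TEAD3 was at 0.05 ± 0.06 at both times (adjusted p = 0.536 and 0.556). TEAD4 rose at 48 h by 0.25 ± 0.08 (adjusted p = 0.0264) and fell from 48 h to 72 h by 0.32 on the log2 scale (adjusted p = 0.0173). Its 48 h call was lost without replicate 1 or 2 of 0 h (0.22 and 0.24), without replicate 1 or 2 of 48 h (0.17 and 0.25) and with equal sums (0.12, adjusted p = 0.195). Its later fall was lost without replicate 2 of 48 h (adjusted p = 0.051) and without replicate 3 of 72 h (adjusted p = 0.0522).

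VGLL4, which competes with YAP for TEAD factors, rose from 15.7 ± 0.203 FPKM at 0 h to 19.1 ± 0.410 at 48 h and 19.6 ± 0.922 at 72 h. Its changes were 0.27 ± 0.06 (SE, adjusted p = 0.00315) and 0.30 ± 0.06 (adjusted p = 0.00153), and the 48 h call was lost with equal sums (0.14, adjusted p = 0.0587). VGLL3 was at -0.23 ± 0.11 at 48 h (adjusted p = 0.113) and -0.17 ± 0.11 at 72 h (adjusted p = 0.229). The 48 h difference of VGLL3 passed without replicate 3 of 48 h (-0.37, adjusted p = 0.00300), with equal sums (-0.36, adjusted p = 0.037) and with quantile normalization (-0.31, adjusted p = 0.0412). VGLL2 was below the filter.

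**Figure D4:**
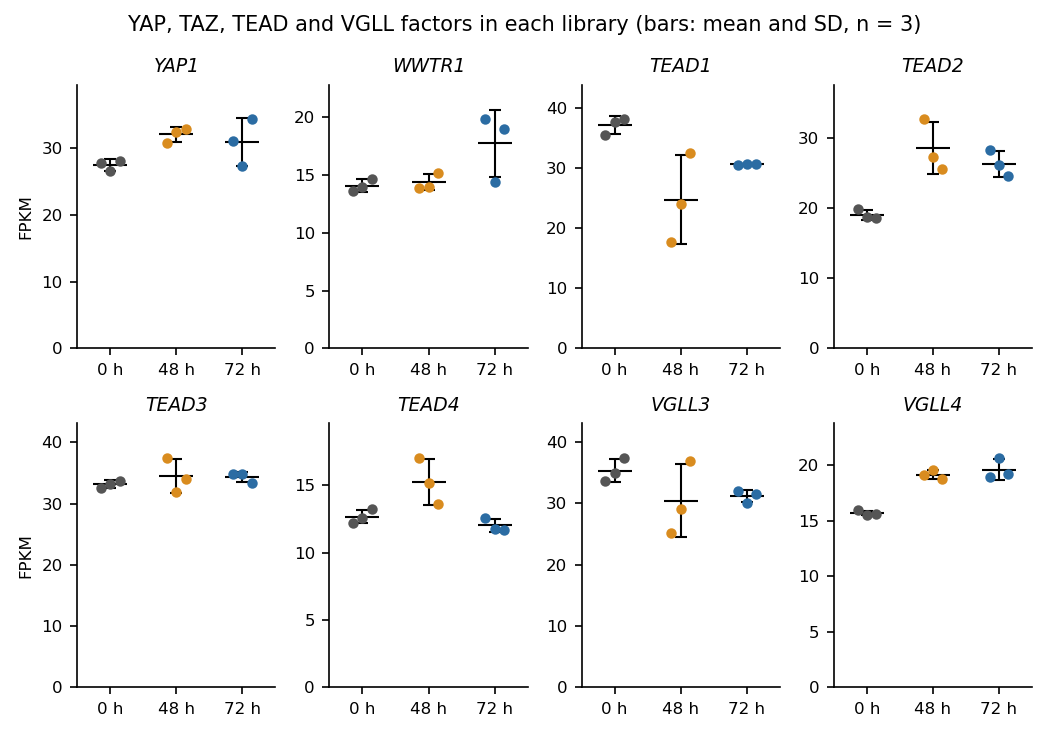
FPKM (vertical axis, from 0) of the 8 tested YAP, TAZ, TEAD and VGLL factor genes in each library of 0 h, 48 h and 72 h; points are libraries, bars the mean and SD (n = 3). TEAD2 and VGLL4 are higher at both later times, and the 3 TEAD1 libraries of 48 h are spread from 17.75 to 32.51.

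The list of Hippo regulators, LATS1 and MOB1A among them, held 18 genes, all tested. At 48 h 4 rose and 9 fell (median -0.22), beside 27.6% and 22.4% of all tested genes. At 72 h 3 rose and 6 fell (median -0.09), beside 23% and 22.5%. SAV1, the scaffold of the MST kinases, rose from 8.21 ± 0.554 FPKM at 0 h to 12.1 ± 1.19 at 48 h and 14.4 ± 1.25 at 72 h, by 0.51 ± 0.09 (SE, adjusted p = 0.00104) and 0.74 ± 0.09 (adjusted p = 6.81e-05). MOB1A, a co-activator of LATS kinases, rose at 72 h by 0.34 ± 0.08 (adjusted p = 0.00377). RASSF1, which binds MST kinases, rose at 48 h by 0.29 ± 0.06 (adjusted p = 0.00316), but not with the span trend removed (0.11, adjusted p = 0.157).

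NF2, the membrane-linked tumour suppressor merlin, went from 38.3 ± 2.29 FPKM to 27.2 ± 0.220 at 48 h and 24.9 ± 0.955 at 72 h, and it fell by 0.47 (adjusted p = 1.33e-04) and 0.60 (adjusted p = 1.68e-05) on the log2 scale. WWC1, which encodes KIBRA, fell by 0.65 (adjusted p = 1.97e-04) and 0.50 (adjusted p = 9.30e-04). The protocadherin FAT1 changed by -0.72 ± 0.14 (adjusted p = 0.00198) and the kinase TAOK1 by -0.74 ± 0.17 (adjusted p = 0.00462) at 48 h, and at 72 h they were at -0.32 (adjusted p = 0.0926) and -0.42 (adjusted p = 0.0633). Their 72 h differences passed without replicate 1 of 48 h (adjusted p = 0.0126 and 0.00827) or replicate 3 of 48 h (adjusted p = 0.0121 and 0.0296), and that of FAT1 also with quantile normalization (-0.40, adjusted p = 0.0431). LATS1, the relative of LATS2, was at -0.22 ± 0.10 at 48 h (adjusted p = 0.0814) and 0.02 ± 0.10 at 72 h (adjusted p = 0.893). Its 48 h difference passed with equal sums (-0.34, adjusted p = 0.0259) and without replicate 3 of 48 h (-0.29, adjusted p = 0.0272). The count of rising regulators at 48 h was 2 without replicate 1 or 3 of 0 h and without replicate 2 of 48 h.

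Between 48 h and 72 h 2 Hippo regulators rose and 1 fell (median 0.13), beside 9.17% and 16.3% of all tested genes. FAT4 rose by 0.45 ± 0.12 (adjusted p = 0.0196), and this was lost without replicate 1 or 2 of 48 h and without replicate 1 or 3 of 72 h (0.33 to 0.45, adjusted p 0.0534 to 0.0645). MAP4K4 rose by 0.16 ± 0.05 (adjusted p = 0.0494), a call lost when any 1 of the 9 libraries was left out. RASSF1 fell by 0.30 (adjusted p = 0.00671), and with the span trend removed it was at -0.17 (adjusted p = 0.0566). Leaving out 1 library in turn gave 0 to 4 rising regulators in this comparison.

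Of 13 other genes of a core set of YAP and TAZ targets, 11 were matched and tested. Among them 3 rose and 5 fell at 48 h (median -0.20), where 27.6% of all tested genes rose and 22.4% fell. At 72 h 4 rose and 5 fell (median -0.16), where 23% and 22.5% of all did. The median over all tested genes was 0.02 at 48 h and -0.01 at 72 h. F3, tissue factor, which starts blood clotting, fell from 108 ± 2.54 FPKM to 36.9 ± 4.38 at 48 h and 34.4 ± 2.06 at 72 h, changes of -1.53 ± 0.08 (SE, adjusted p = 5.66e-07) and -1.63 ± 0.08 (adjusted p = 8.14e-08). TGFB2, a growth factor of the TGF-beta family, fell from 26.6 ± 0.510 to 10.2 ± 1.14 and 8.78 ± 0.941 FPKM, changes of -1.30 (adjusted p = 2.93e-06) and -1.5 (adjusted p = 3.06e-07) on the log2 scale. From 48 h to 72 h F3 differed by -0.09 (adjusted p = 0.424) and TGFB2 by -0.20 (adjusted p = 0.123). The later difference of TGFB2 passed with the span trend removed (-0.28, adjusted p = 0.0148) and without replicate 1 of 48 h (-0.28, adjusted p = 0.0407).

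Of the core targets that rose, FOXF2, a transcription factor of mesenchyme, went from 1.40 ± 0.612 FPKM to 3.49 ± 1.06 at 48 h and 3.42 ± 1.22 at 72 h, by 0.90 ± 0.23 (SE, adjusted p = 0.00754) and 0.87 ± 0.23 (adjusted p = 0.00926). FJX1, a secreted protein, rose by 0.40 ± 0.15 (adjusted p = 0.0420) and 0.49 ± 0.15 (adjusted p = 0.0179). Its 48 h call was lost in 10 of 18 alternatives, with values from 0.09 (span trend removed) to 0.40, and without replicates 1 or 3 of 0 h, 2 or 3 of 48 h or 1 of 72 h (0.33 to 0.40). The 72 h call was lost in 6, among them those without replicates 1 or 3 of 0 h or 1 or 2 of 72 h (0.35 to 0.47). From 48 h to 72 h 1 core target rose and 0 fell by limma (3 and 2 at an unadjusted p below 0.05). Among all tested genes 9.17% rose and 16.3% fell. The core target that rose was CCDC80, a matrix protein, by 0.50 ± 0.10 (adjusted p = 0.00629).

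The count of rising core targets at 48 h was 1 without replicate 1 of 0 h, where 5 were called in all instead of 8. At 72 h it was 2 without replicate 1 or 3 of 0 h and without replicate 1 of 72 h. Between 48 h and 72 h, 2 were called without replicates 1 or 3 of 48 h or 2 or 3 of 72 h.

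**Figure D5:**
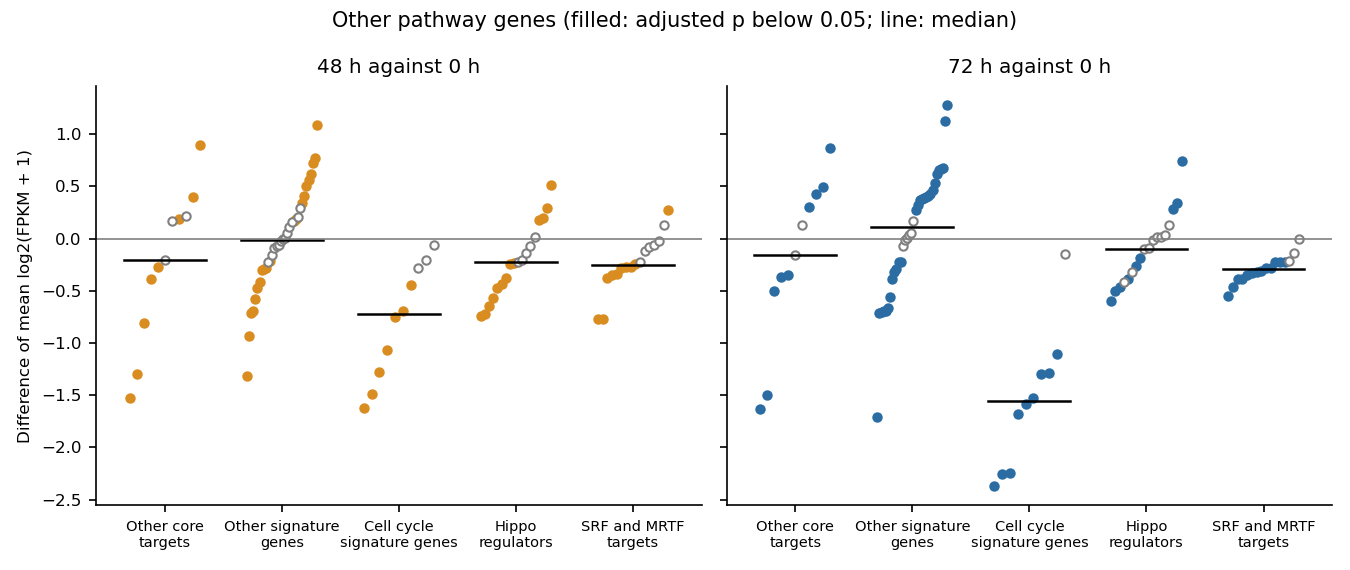
Difference of mean log2(FPKM + 1) from 0 h (vertical axis) at 48 h (left) and 72 h (right) for the tested genes of 5 lists; each point is a gene, filled where limma's adjusted p was below 0.05, and the line is the list's median. The medians at 72 h are -0.16 for core targets, 0.11 for other signature genes, -1.55 for cell cycle genes, -0.09 for Hippo regulators and -0.29 for SRF and MRTF targets. The list of SRF and MRTF targets also holds SRF, MRTFA and MRTFB themselves.

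Further genes of published YAP signatures were split into those of the cell cycle and the rest. Of the rest, 34 of 39 listed genes were tested. At 48 h 10 rose and 11 fell (median -0.01), beside 27.6% and 22.4% of all tested genes. At 72 h 16 rose and 12 fell (median 0.11), beside 23% and 22.5%. DLC1 fell by 0.93 on the log2 scale at 48 h (adjusted p = 2.41e-04), and CDC42EP3, which binds CDC42, by 0.71 at 72 h (adjusted p = 4.16e-05). ITGB5, an integrin subunit, rose from 16.5 ± 0.150 FPKM to 36.5 ± 3.58 and 41.8 ± 5.52, by 1.09 ± 0.09 (adjusted p = 1.05e-05) and 1.28 ± 0.09 (adjusted p = 1.56e-06). FGF2, a fibroblast growth factor, rose at 72 h by 1.13 ± 0.08 (adjusted p = 1.29e-06), and FSCN1, which bundles actin, at 48 h by 0.77 ± 0.06 (adjusted p = 8.76e-06).

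Of the 34 signature genes 10 rose and 3 fell from 48 h to 72 h (median 0.03), beside 9.17% and 16.3% of all tested genes. DUSP1, a phosphatase of MAP kinases, had 95.4 ± 1.62 FPKM at 0 h, 78.0 ± 4.44 at 48 h and 127 ± 4.23 at 72 h. It fell at 48 h by 0.29 (adjusted p = 0.00205) and was above 0 h at 72 h by 0.41 ± 0.06 (adjusted p = 1.92e-04), the order also seen in CCN2. MDFIC rose by 0.59 ± 0.15 (adjusted p = 0.0196). Its value was 0.38 without replicate 1 of 48 h, and the call was lost without replicates 1 or 3 of 72 h (0.55 in each). GADD45B, a stress-responsive gene, fell by 0.61 (adjusted p = 7.93e-04) and FSCN1 by 0.50 (adjusted p = 4.47e-04). Without replicate 1 or 3 of 72 h 5 signature genes fell, and with the replicate block 6 did.

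The 10 signature genes of the cell cycle were called in 1 direction only. At 48 h 0 rose and 7 fell (median -0.72), beside 27.6% and 22.4% of all tested genes. At 72 h 0 rose and 9 fell (median -1.55), beside 23% and 22.5%. From 48 h to 72 h 0 rose and 8 fell (median -0.89), beside 9.17% and 16.3%. At an unadjusted p below 0.05 limma gave 0 rises of cell cycle genes in each of the 3 comparisons. TOP2A, the topoisomerase of dividing cells, went from 51.6 ± 1.60 FPKM to 17.9 ± 2.62 and 9.20 ± 1.10, changes of -1.49 ± 0.11 (SE, adjusted p = 3.42e-06) and -2.37 ± 0.11 (adjusted p = 3.72e-08). HMMR, a spindle protein, changed by -1.62 at 48 h (adjusted p = 2.35e-06) and SHCBP1 by -2.26 at 72 h (adjusted p = 1.92e-08). BIRC5, survivin, changed by -1.25 from 48 h to 72 h (adjusted p = 2.8e-05) and DUT, which removes dUTP, by -1.05 (adjusted p = 4.58e-05). GGH was the 1 gene that did not pass at 72 h (-0.15, adjusted p = 0.143). All but GGH had their lowest mean at 72 h, as did the targets ANKRD1, AXL, CRIM1 and AJUBA, though CRIM1 and AJUBA overlapped between 48 h and 72 h.

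Many genes of the contractile cytoskeleton are driven by SRF with the MRTF co-activators, which share tension as an input with YAP. Of 18 listed genes, among them SRF, MRTFA and MRTFB themselves, 16 were tested. Counts of SRF targets in this text are of that list. At 48 h 1 rose and 9 fell (median -0.25), beside 27.6% and 22.4% of all tested genes. At 72 h 0 rose and 13 fell (median -0.29), beside 23% and 22.5%. Limma gave 0 rises of the list at 72 h also at an unadjusted p below 0.05. ACTG2, a smooth muscle actin, went from 2780 ± 113 FPKM to 1640 ± 198 and 1900 ± 97.9, and it fell by 0.77 (adjusted p = 5.18e-05) and 0.55 (adjusted p = 3.63e-04) on the log2 scale. MYH9, a non-muscle myosin, fell by 0.77 (adjusted p = 1.37e-04) and 0.46 (adjusted p = 0.00318). ZYX, zyxin of focal adhesions, rose at 48 h by 0.27 ± 0.07 (adjusted p = 0.0107), a call lost with equal sums (0.13), quantile normalization (0.12) and the span trend removed (0.08, adjusted p = 0.222).

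From 48 h to 72 h 1 gene of the SRF list rose and 3 fell (median -0.02), beside 9.17% and 16.3% of all tested genes. MYH9 rose by 0.32 ± 0.10 (adjusted p = 0.0389), and its call was lost without replicate 1 or 3 of 0 h, 1 of 48 h (0.19) or 1 or 3 of 72 h (adjusted p 0.0516 to 0.121). ZYX fell by 0.40 (adjusted p = 0.00298), MRTFA by 0.33 (adjusted p = 0.00671) and SRF, named to complete the count, by 0.27 (adjusted p = 0.0158). The call of SRF was lost with equal sums (-0.19, adjusted p = 0.064) and with the span trend removed (-0.15, adjusted p = 0.102). Without replicate 3 of 48 h 6 genes fell in this comparison and 2 rose at 48 h against 0 h. The summed level of the pericyte and smooth muscle markers, 193 to 195 at 0 h and 114 to 138 later, moved with this list too, and its part was not tested.

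Relatives of the target genes and their ligands were tested whatever their values. Of 20 listed, 14 passed the filter. At 48 h 2 rose and 3 fell (median -0.01), beside 27.6% and 22.4% of all tested genes. At 72 h 4 rose and 4 fell (median 0.02), beside 23% and 22.5%. Within the CCN family CCN3 did not follow CCN1 and CCN2. It had 43.5 ± 1.54 FPKM at 0 h, 42.8 ± 2.08 at 48 h and 23.9 ± 1.34 at 72 h, and fell at 72 h by 0.84 on the log2 scale (adjusted p = 1.76e-06). CCN4 had 68.4 ± 1.14, 48.2 ± 0.651 and 48.0 ± 2.95 FPKM, and fell at both times, by 0.50 (adjusted p = 7.35e-05) and 0.51 (adjusted p = 4.02e-05). CCN5 had 1.49 ± 0.289 FPKM at 0 h and did not pass at 48 h (adjusted p = 0.159) or 72 h (adjusted p = 0.610), and CCN6 was below the filter. So were ANKRD2 and ANKRD23, relatives of ANKRD1.

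For the angiomotins, AMOT rose at both times, by 0.51 ± 0.10 (SE, adjusted p = 0.00152) and 0.55 ± 0.10 (adjusted p = 8.72e-04), from 3.07 ± 0.196 FPKM at 0 h. AMOTL1 fell, by 0.22 at 48 h (adjusted p = 0.0312) and 0.31 at 72 h (adjusted p = 0.00732), whereas AMOTL2 was described above at -0.60 and -0.30. The 48 h call of AMOTL1 was lost without replicates 1 or 2 of 0 h (-0.21 and -0.19), without replicate 1 of 48 h (-0.16) and with the span trend removed (-0.07, adjusted p = 0.399).

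GAS6, the ligand of AXL, rose at 72 h while AXL was lower. It had 10.27, 10.78 and 10.85 FPKM at 0 h, 12.36, 11.94 and 10.39 at 48 h and 20.04, 14.83 and 18.28 at 72 h. The 72 h libraries were above all others, and the change was 0.68 ± 0.10 (SE, adjusted p = 3.29e-04) against 0 h and 0.57 ± 0.10 (adjusted p = 0.00315) against 48 h. PROS1, protein S, a ligand of related receptors, rose by 0.24 ± 0.06 (adjusted p = 0.00521) and 0.39 ± 0.06 (adjusted p = 9.41e-04) in the same comparisons. TYRO3, a receptor related to AXL, was at 0.00 ± 0.08 at 48 h (adjusted p = 0.990) and -0.02 ± 0.08 at 72 h (adjusted p = 0.872), and MERTK, the other receptor, was below the filter.

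Of the other relatives, PTPN21 fell at 48 h by 0.35 (adjusted p = 0.0133; -0.23 with the span trend removed) and rose from 48 h to 72 h by 0.33 ± 0.10 (adjusted p = 0.0325), the order also seen in PTPN14. The later rise was lost without replicates 1 or 2 of 48 h and 1 or 3 of 72 h (0.22 to 0.33). PTPN13 rose at 72 h by 0.31 ± 0.09 (adjusted p = 0.0201), a call lost without replicates 1 or 3 of 0 h and 2 or 3 of 72 h (0.28 to 0.30). LIMD1, a relative of AJUBA, fell at 72 h by 0.26 (adjusted p = 0.0414), and this was lost in 9 of 18 alternatives, among them those without replicates 2 or 3 of 0 h, 2 of 48 h or any 1 of 72 h (-0.28 to -0.21). WTIP did not pass at 48 h (adjusted p = 0.0783) or 72 h (adjusted p = 0.878), though its 48 h difference passed with quantile normalization (0.21) and without replicate 1 of 48 h (0.23). DYSF, a relative of MYOF, rose at 48 h by 0.34 ± 0.09 (adjusted p = 0.00847), or by 0.60 with a pseudocount of 0.1, from 0.900 ± 0.0954 FPKM at 0 h. FER1L5 and FER1L6, also of the family of MYOF, were below the filter. From 48 h to 72 h 3 relatives rose and 1, CCN3, fell (median -0.01), beside 9.17% and 16.3% of all tested genes. Without replicate 3 of 48 h 5 relatives rose.

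The genes whose values were most like those of the leading targets were sought among 2553 tested genes with a symbol whose group means spanned at least 0.5 on the log2 scale. Likeness was the Pearson correlation of log2(FPKM + 1) over the 9 libraries, which share 3 times, and it is a description. Most like ANKRD1 were PDLIM1 (0.9949), a LIM protein of actin fibres, and CENPN, OIP5, KIF22 and CHAF1A (0.9945 to 0.9919), known from centromeres, chromosome movement and chromatin assembly. PDLIM1 went from 45.8 ± 0.263 FPKM at 0 h to 36.1 ± 1.40 at 48 h and 26.2 ± 0.882 at 72 h, a much smaller range than ANKRD1.

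Most like CCN1 were PLK2 (0.9739), a stress-responsive kinase, CSRNP1 (0.9641), HSPA5 (0.9550), the chaperone BiP, YPEL2 (0.9537) and FSTL1 (0.9429). PLK2 had 26.3 ± 0.962, 13.9 ± 1.02 and 22.8 ± 1.46 FPKM at the 3 times. Most like CCN2 were PLSCR4 (0.9813), TRIB1 (0.9752), NCEH1 (0.9646), GPNMB (0.9574) and KLF4 (0.9573), a transcription factor. KLF4 had 45.1 ± 1.36, 34.4 ± 2.85 and 58.1 ± 6.18 FPKM. No gene was among the 5 most like more than 1 of these targets. Among the targets themselves, CCN2 correlated with PTPN14 at 0.87 and with ANKRD1 at -0.63, and CRIM1 correlated with LATS2 at 0.96.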

How the data were processed

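The 9 RNA libraries of porcine embryonic fibroblasts were grouped by their labels, 3 each at 0 h, 48 h and 72 h. The deposited values are FPKM made by the authors, 1 per gene ID and library, per the file headers. Per the submitters' processing notes, the build was Sscrofa11.1 and the tools included RSEM 1.2.28, HISAT2 2.1.0, DESeq2 and featureCounts 2.0.2, without roles. The tool and annotation behind the FPKM values, and any use of strand in counting, are not stated there. Without strand, overlapping and antisense genes share reads, and near-identical copies may too.

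The target genes, the other gene lists and the tests were chosen with earlier results of these data known, and the lists follow general knowledge of published YAP signatures, the Hippo pathway and SRF targets. Of 30477 gene IDs, 14864 had a symbol. Of the 11063 tested genes, 9875 had one. CCN1 and CCN2 appear in the RefSeq table of Sscrofa11.1, the source of coordinates and spans, as CYR61 and CTGF. IGFBP3, ARHGEF17, SH2D4A, VGLL1, FHL1, FHL2, THY1, KRT19 and VWF were not analysed here.

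Values were taken as log2(FPKM + 1), which understates changes of low genes. One limma fit (limma 3.58.1, R 4.3.3, variance trend) held all 9 libraries with group as the only term. Tests were two-sided, with Benjamini-Hochberg adjustment over the 11063 genes and a threshold of 0.05. The target genes got no test. Named genes were all targets, all factors and relatives, and in each other list the 2 called genes with the largest change in each direction and comparison. SRF and GGH were named beyond that rule after their values were seen. A value that the rule would name is not reported here. On simulated data with these genes for 48 h against 0 h, 75% of 100 genes changed by 0.5 and 96% of 100 changed by 1 were recovered, with 14 others called. The simulation changed only these genes and drew the noise of each gene and library independently. In the real data 27.6% of all tested genes rose and 22.4% fell at 48 h, so the simulated rates may not hold there. Alternatives varied the pseudocount, filter, scaling, replicate block and libraries. Removal of a trend on gene span was added after seeing the data.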

Additional observations from a re-analysis of the deposited data

Results flagged for a closer look

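The genes below lay on opposite sides of the 0 h level at 48 h and 72 h. DUSP1, a phosphatase of MAP kinases from the YAP signature list, differed from 0 h by -0.29 on the log2 scale at 48 h and by 0.41 at 72 h, and the difference between the later times, 0.69, passed limma's test (adjusted p = 2.52e-05). CCN2 differed by -0.24 and 0.43, a step of 0.67 from 48 h to 72 h, and PTPN14 by -0.28 and 0.12, a step of 0.40. For both, every 48 h library was below and every 72 h library above the 0 h mean. The 72 h libraries of CCN2 were above every 0 h library, whereas those of PTPN14 overlapped with 0 h (0.12 ± 0.09, SE). The differences of both genes were not tested, since the genes were chosen by these values. With 3 libraries a time, no library was tested as an outlier.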

How the results depend on the processing

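Read depth is unknown, 3 libraries a time set the precision, and with insulin and time in culture confounded neither can be named for any value. Of 540 recomputed differences of the target genes, 501 moved by no more than the spread between replicates and 38 by more. The remaining 1, MYOF at 48 h, turned to 0.01 with the span trend removed. Most of the 501 could not move further. The filters, the replicate block and the limit to genes with a span keep the group means, and leaving out 1 of 3 libraries cannot exceed that spread. Each setting recomputed 30 differences. The 38 came from changes of scale: 14 with equal sums, 12 with the span trend removed, 11 with quantile normalization and 1 with median-of-ratios scaling. Where groups overlapped, small differences also changed sign: CRIM1 from 48 h to 72 h, from -0.06 to 0.02 with equal sums, 0.01 with quantile normalization, 0.06 without replicate 3 of 48 h and 0.02 without replicate 2 of 72 h, and MYOF at 72 h, from 0.07 to -0.01 with quantile normalization. The cause was not tested here or for the counts below. Over all genes, equal FPKM sums shifted the median gene at 48 h by -0.13, giving 1959 rises (34.7% of calls, from 55.2%) at 48 h and 1127 falls from 48 h to 72 h. There the share of rises went from 36% to 55.9% with equal sums, 48.6% with quantile normalization and 47.5% with median-of-ratios scaling.

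The remaining values are counts of genes called. With equal sums 1 core target, 2 Hippo regulators, 1 factor and 0 SRF targets rose and 2 factors and 5 relatives fell at 48 h, and 2 core targets (2 called in all) and 2 SRF targets rose from 48 h to 72 h. With quantile normalization 2 Hippo regulators and 0 SRF targets rose and 2 factors fell at 48 h, and 2 core targets (2 in all) and 2 SRF targets rose from 48 h to 72 h. With median-of-ratios scaling 2 Hippo regulators rose at 48 h, and 1 factor and 2 SRF targets rose from 48 h to 72 h. With the span trend removed 2 Hippo regulators and 0 SRF targets rose and 1 relative fell at 48 h, and 1 relative fell at 72 h. From 48 h to 72 h it left 2 rises and 2 falls of core targets (4 in all), 1 rise of Hippo regulators, 2 rises and 1 fall of SRF targets and 0 falls of relatives. Among only genes with a span, where CCN3 and CCN4 are missing, 2 relatives fell at 72 h and 0 from 48 h to 72 h. Without a filter 2 core targets rose at 72 h, and from 48 h to 72 h 1 Hippo regulator and 0 SRF targets rose. With a mean FPKM of at least 5, 2 core targets rose at 72 h and 0 relatives at 48 h, with fewer genes tested. A pseudocount of 0.1 left 1 rise of Hippo regulators from 48 h to 72 h.

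Same-numbered libraries of different times deviated from their group means with correlations of -0.071 to 0.193, and not every library correlated best with its own number, so the numbers were not taken as pairs. With the replicate block 6 other signature genes fell and 2 SRF targets rose from 48 h to 72 h, and the other counts stayed within 1.5 times.

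Leaving out 1 library in turn gave 5 to 9 calls and 1 to 4 rises of core targets at 48 h, 2 to 4 rises at 72 h, and 1 to 2 calls, 1 to 2 rises and 0 to 1 falls from 48 h to 72 h. Hippo regulators had 2 to 4 rises at 48 h, then 0 to 4 rises and 1 to 2 falls from 48 h to 72 h. Factors had 2 to 4 rises and 1 to 2 falls at 48 h, 0 to 1 falls at 72 h, and 0 to 1 rises and 0 to 1 falls from 48 h to 72 h. SRF targets had 1 to 2 rises at 48 h, and 0 to 1 rises and 3 to 6 falls from 48 h to 72 h. Other signature genes had 2 to 5 falls and relatives 2 to 5 rises from 48 h to 72 h. All genes had 589 to 1497 rises, lowest without replicate 2 of 48 h and also low without replicates 1 (624) or 3 (651) of 72 h, and 1138 to 2196 falls, lowest without replicate 2 of 48 h. The cell cycle counts stayed within 1.5 times under every alternative run.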
